A study of Homo sapiens with 2 samples.

Results

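The direct target genes of the transcription factor p53 described here are CDKN1A, MDM2, GDF15, BBC3, TP53I3, SESN1, ZMAT3, FAS, TNFRSF10B and RRM2B. They were chosen by name, and all 10 are among the 21382 genes of the deposited table. RNA-Seq was performed on 2 established lines of human prostate cancer cells, MDA PCa 2b and also RC77 T/E, both untreated, with 1 library per line. MDA PCa 2b cells were grown in F-12 based medium with serum, cholera toxin, epidermal growth factor, hydrocortisone, selenite and insulin. RC77 T/E cells were grown in a serum-free keratinocyte medium that held bovine pituitary extract and epidermal growth factor. As background from outside the labels, RC77 T/E is a line immortalised with the E6 and E7 genes of a human papillomavirus, and E6 is known to direct p53 protein to degradation. p53 protein was not measured. With 1 library each, the cell line, its medium and its lineage cannot be told apart, and no difference below has a replicate error or a test.

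p53 is activated by DNA damage, oncogene signaling and other stresses, binds a response element made of a pair of half-sites, and raises the transcription of genes for cell cycle arrest, apoptosis, DNA repair and metabolic defence. MDM2, itself a target, marks p53 for degradation and so closes a feedback loop. In prostate cancer, GDF15 is a secreted protein known for high expression in prostate tumors.

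Values are TPM, the share of a gene among all transcripts of a library after correction for transcript length. The table holds no read counts, so the depth behind a TPM value is unknown. In the deposited table most values of 1 TPM or more lost their decimal mark. The mark was put back by the deposited mean and standard error of both lines, which fixed it for GDF15, MDM2 and SESN1. For BBC3 it was set by the position in the study's supplementary table. For the 6 other targets 2 or 3 positions matched, and every TPM value that matches is given. Such a mark is called open. The ratio between the cell lines as a plain fold of TPM was the same at every position for these genes. Where a pair of TPM values is given without the lines, MDA PCa 2b comes first. The log2 ratio is log2 of MDA PCa 2b TPM plus 1 over RC77 T/E TPM plus 1, so a positive value is a higher level in MDA PCa 2b, and it understates the change of low genes.

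Over the 11624 genes that averaged 1 TPM or more, the median log2 ratio was 0.15. Of 7 luminal prostate markers, MDA PCa 2b had 7 and RC77 T/E had 3 at a level of 1 TPM or above, with sums of 6619 and 358.0 TPM where open marks are at the lowest position. KRT8 is the luminal marker with an open mark, at 31.8 or 318.5 TPM in RC77 T/E. In RC77 T/E cells KLK3 and FOLH1 are listed at 0. At the same position the 5 basal markers summed to 44.4 TPM in MDA PCa 2b against 8022 TPM in RC77 T/E cells. The 11 markers of blood, vessel and stromal cells summed to 2.63 and 47.1 TPM. Of them, 0 reached 1 TPM in MDA PCa 2b, while 2 did in RC77 T/E, CD68 at 37.9 TPM and COL1A1 at 8.24 TPM. PTPRC and PECAM1 were at most at 0.0119 TPM. A listed 0 can be a failed estimate, since EEF1A1, a gene used by every cell, is listed at 0 in MDA PCa 2b while it was at 2393 TPM in RC77 T/E. Of 12 such genes, 8 lay within 2-fold on the TPM + 1 scale. Beside them, 20.1% of all 11624 genes were at least 2-fold higher in MDA PCa 2b, while 19.4% were at least 2-fold lower there. RPLP0 (log2 ratio 1.33) and RPL13A (1.82) passed this limit towards MDA PCa 2b, while ACTB (-1.26) and EEF1A1 passed it towards RC77 T/E.

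GDF15 differed most between the lines, and the other targets were expressed in both at levels that differed by less than 4-fold. Each of the 10 reached 1 TPM in both lines, with ZMAT3 at 1.06 TPM in MDA PCa 2b at its lowest position. Of all 21382 genes, 10607 reached 1 TPM in MDA PCa 2b against 11286 in RC77 T/E. At a limit of 5 TPM, with open marks at the lowest position, 7 of the 10 targets passed in each line. These counts depend on the open marks, and the share of all genes at that limit was not computed. In MDA PCa 2b, GDF15, BBC3, SESN1 and RRM2B were at least 2-fold higher on the TPM + 1 scale, 4 of 10 genes where 20.1% of all 11624 genes were. In RC77 T/E, ZMAT3 and TNFRSF10B passed the same limit, 2 of 10 genes where 19.4% of all genes were. CDKN1A, MDM2, TP53I3 and FAS lay within 2-fold. GDF15 had been noted for its ratio in these libraries when the genes were chosen, so these counts are a description. The median log2 ratio of the 10 genes was 0.64. BBC3 and SESN1 lay just past the 2-fold limit, with log2 ratios of 1.06 and 1.01. Of the genes within it, CDKN1A and TP53I3 came nearest, with -0.70 and 0.68, or -0.77 and 0.89 at the highest position of their open marks. With log2 ratios centred on the median of all genes, BBC3 (0.91) and SESN1 (0.86) fell short, which left 2 genes higher in MDA PCa 2b beside 16.4% of all genes and 2 higher in RC77 T/E beside 21.9%.

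**Figure D1:**
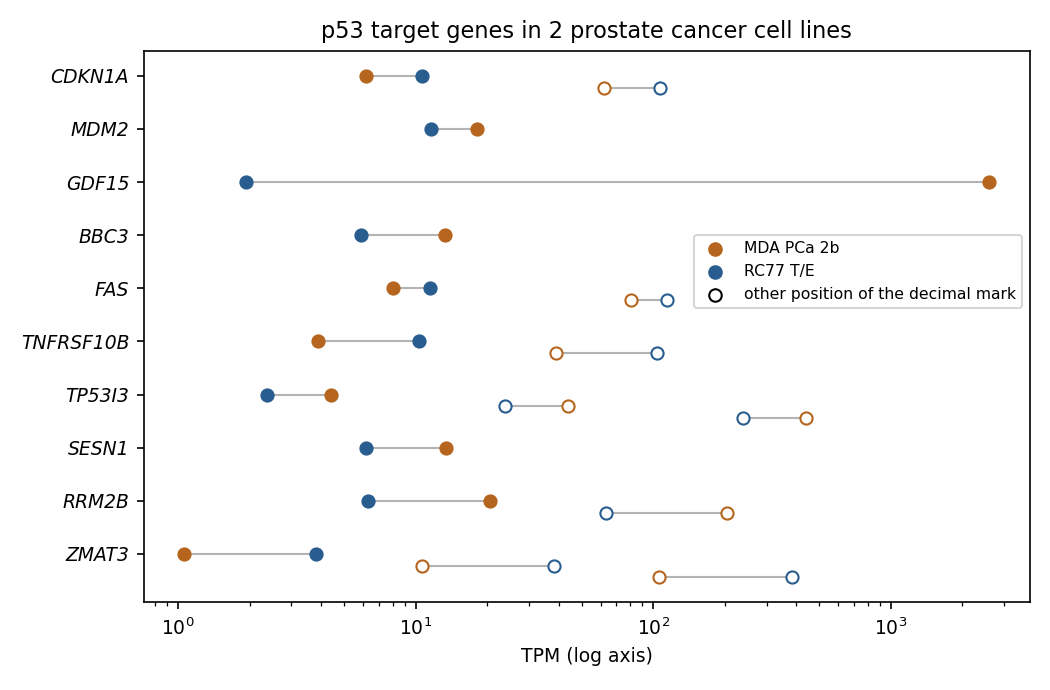
Expression in TPM (log axis) of the 10 p53 target genes in MDA PCa 2b (brown) and RC77 T/E cells (blue), 1 library each, with the lowest fitting value filled and the other positions of an open decimal mark as open circles. The points of GDF15, at 2599 and 1.93 TPM, lie farthest apart, and the distance between the lines of each other gene is the same at every position.

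Stretches of promoter sequence are shown for GDF15, the gene that differed most, and for SESN1 and FAS, the genes whose windows held a p53 half-site. They are from RefSeq on GRCh38.p14, where 8 of the 10 genes had a window, 16 windows in all. Each window is the 250 bases before a transcription start, and all sequences run 5′ to 3′ on the strand of the gene. The p53 half-site consensus, a motif of 10 letters that reads the same on both strands, was found in 5.57% of all 35116 windows and in 2 of the 16. Only exact matches within these 250 bases were sought, so a site with a mismatch or farther away was not seen. In the SESN1 and FAS sequences the capitals mark the exact half-site. A second half-site with mismatches was not searched for, so the capitals do not tell if a pair is present. The SESN1 window (chr6:109008989-109009238, minus strand) is intronic in GENCODE release 29 and lies before an internal start at 109008988, and its half-site begins 49 bases before that start. The FAS stretch (chr10:88991301-88991330, plus strand) is from a window that is exonic in that release and lies before an internal start at 88991431. Its half-site begins 122 bases before that start.
SESN1: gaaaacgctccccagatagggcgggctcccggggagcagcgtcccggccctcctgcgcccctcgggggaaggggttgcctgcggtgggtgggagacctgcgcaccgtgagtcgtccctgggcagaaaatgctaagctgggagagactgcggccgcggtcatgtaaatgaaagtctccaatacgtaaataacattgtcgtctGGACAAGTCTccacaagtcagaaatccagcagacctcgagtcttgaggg
FAS: gaactcctGGACAAGCCCtgacaagccaag
The GDF15 stretch (chr19:18386121-18386150, plus strand) ends 8 bases before an internal start at 18386158. That start lies 11427 bases into the gene in GENCODE release 29, and 241 of the 250 bases of the window are exonic there. Its capitals mark a TATA box, searched as TATAAA on both strands, which begins 29 bases before the start. A TATA box was found in 10.7% of all windows, and GDF15 had the only one among the 16.
GDF15: ccggggacTATAAAggccggtccggcagca
The same window held a pair of GC boxes, GGGCGG on either strand, which 42.6% of all windows and 12 of the 16 contained. These matches are a description of letters. Of the genes with a half-site, SESN1 was at least 2-fold higher in MDA PCa 2b, and FAS was 1.42-fold higher in RC77 T/E, within 2-fold. A link between the matches and the levels was not tested.

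CDKN1A (ENSG00000124762, chromosome 6 of GRCh38, 36676460 to 36687337) encodes p21, the inhibitor of cyclin-dependent kinases through which p53 halts the cell cycle. It was at 6.21 TPM in MDA PCa 2b against 10.7 TPM in RC77 T/E cells, or at 62.1 and 106.8 TPM at the other position of the mark. The gene was thus 1.72-fold higher in RC77 T/E, within the 2-fold limit. The transcript DINOL overlaps it in antisense. The libraries were directional, but the sources do not say if reads were assigned by strand, which bears on each antisense overlap given below.
Of 25 relatives and binding partners of the 10 targets, 24 were matched and 21 averaged 1 TPM or more. Of these, 3 passed the 2-fold limit towards MDA PCa 2b and 8 towards RC77 T/E, where 20.1% and 19.4% of all genes did, with a median log2 ratio of -0.62. Most of them are given beside their target.
The other members of the CDKN1 family did not share one direction. CDKN1B, which encodes p27, was at 5.85 or 58.5 TPM in MDA PCa 2b against 2.25 or 22.5 TPM in RC77 T/E. CDKN1C, which encodes p57, was at 0.403 and 5.09 TPM, with the mark fixed. CDKN1B was higher in MDA PCa 2b (log2 ratio 1.08) and CDKN1C in RC77 T/E (-2.12).
Among the partners that p21 binds, CDK6, a kinase of the early cell cycle, was at 0.0132 TPM in MDA PCa 2b against 15.3 TPM in RC77 T/E cells. CCND2, a D-type cyclin, was at 0.0275 and 61.5 TPM. Both partners were thus near 0 in MDA PCa 2b. CDK4 went the other way, at 12.0 or 119.5 TPM in MDA PCa 2b against 4.18 or 41.8 TPM in RC77 T/E. With open marks at the lowest position, CCND1, CCND3, CCNE1, CCNE2 and PCNA had log2 ratios between -0.62 and 0.49, and CDK2 had -1.01. At the highest position the range was -0.76 to 0.55, and CDK2 had -1.31.

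MDM2 (ENSG00000135679, chromosome 12, 68808177 to 68845544), the ubiquitin ligase of p53, was at 18.2 TPM in MDA PCa 2b against 11.6 TPM in RC77 T/E cells. It was 1.56-fold higher in MDA PCa 2b, with a log2 ratio of 0.60, or 0.45 after centring. The mark was fixed for both values. CPM overlaps MDM2 in antisense and was at 0.0538 and 2.82 TPM. The non-coding AC025423.1, AC025423.2 and AC025423.4 also overlap MDM2 and are not analysed here. MDM4, the relative that binds p53 without degrading it by itself, was at 6.10 TPM in MDA PCa 2b against 6.90 TPM in RC77 T/E. In both lines MDM4 was thus below MDM2.

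GDF15 (ENSG00000130513, chromosome 19, 18374731 to 18389176) encodes a secreted stress cytokine of the TGF-beta family. It was at 2599 TPM in MDA PCa 2b against 1.93 TPM in RC77 T/E cells, a fold of 1348 with the mark fixed in both. It was the highest of the 10 targets in MDA PCa 2b and the lowest of them in RC77 T/E at every position of the open marks. Only 68 of the 21382 genes were higher than GDF15 in MDA PCa 2b, whereas the number above it in RC77 T/E was between 10265 and 10626.
Its log2 ratio of 9.79 was 29th of 11624, and 37th with open marks at their highest positions. Of protein-coding genes on the autosomes and the X chromosome, DAPL1, at 2183 and 0.307 TPM, and HLA-DRA, an MHC class II gene at 1002 TPM and listed at 0, came just before it. AZGP1, at 591.2 and 0.0636 TPM, and TMPRSS2, an androgen-regulated protease gene at 482.9 and 0.108 TPM, came just after. The size of the ratio depends on the pseudocount, since the level in RC77 T/E is low, and it was 10.32 with a pseudocount of 0.1 TPM and 10.40 with none.
The miRNA gene MIR3189 lies inside GDF15 on the same strand and is listed at 0 in both lines. GFRAL, the receptor of GDF15 in the brainstem, is listed at 0 in both lines. RET, its co-receptor, was at 2.65 TPM in MDA PCa 2b against 0.162 TPM in RC77 T/E.

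**Figure D2:**
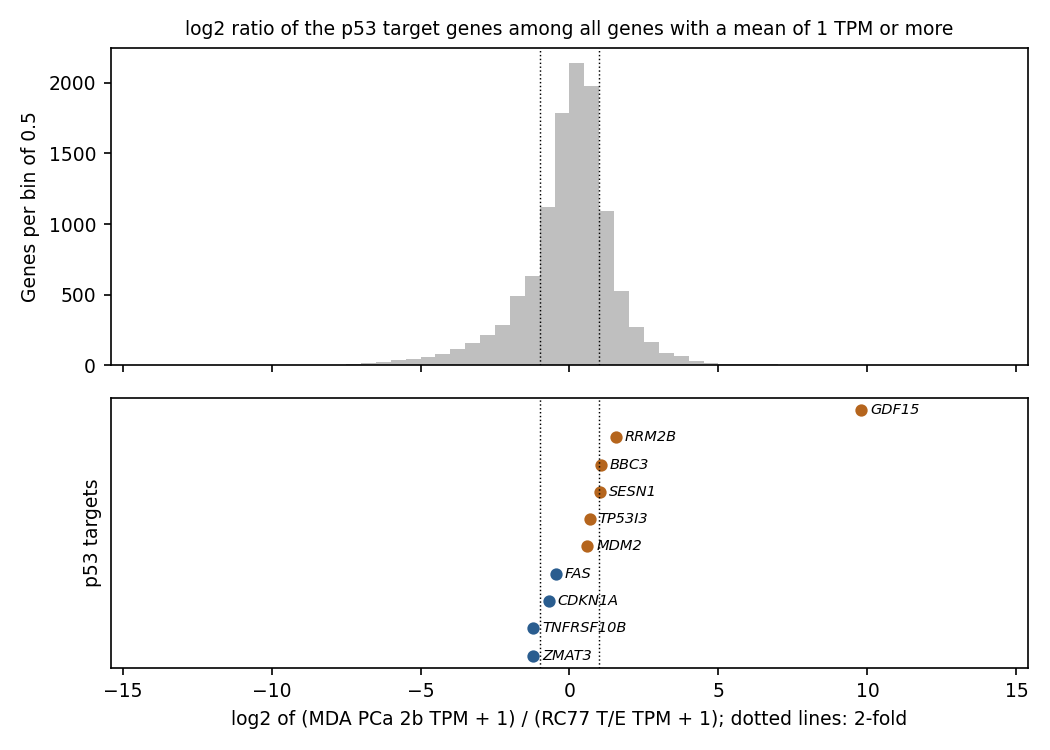
Number of genes by log2 ratio of MDA PCa 2b to RC77 T/E (top, 11624 genes in bins of 0.5) and the ratio of each p53 target gene on the same axis (bottom), 1 library per line. Open decimal marks are at their lowest position. GDF15 stands at 9.79, in the thin tail of the histogram, and the other targets lie between -1.23 and 1.56, in its body.

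BBC3, FAS and TNFRSF10B act in apoptosis. BBC3 (ENSG00000105327, chromosome 19, 47220822 to 47232766) encodes PUMA, which binds BCL2 proteins at the mitochondrion. It was at 13.3 TPM in MDA PCa 2b against 5.89 TPM in RC77 T/E, 2.27-fold higher in the former. The miRNA genes MIR3190 and MIR3191, which lie in BBC3, are listed at 0 in both lines. BCL2, a protein that PUMA binds, was at 1.39 and 0.178 TPM, and BCL2L1, which encodes another, was at 57.6 and 104.0 TPM. BCL2, which averaged under 1 TPM and so was not ranked, was higher in the same line as BBC3, and BCL2L1 was 1.81-fold higher in RC77 T/E.
FAS (ENSG00000026103, chromosome 10, 88953813 to 89029605), the death receptor for FAS ligand, was at 8.07 or 80.7 TPM in MDA PCa 2b against 11.5 or 114.6 TPM in RC77 T/E. It was 1.42-fold higher in RC77 T/E, within the 2-fold limit. ACTA2 overlaps FAS on the opposite strand and was at 1.27 and 2.92 TPM. The ligand gene FASLG is listed at 0 in MDA PCa 2b and was at 0.0177 TPM in RC77 T/E.
TNFRSF10B (ENSG00000120889, chromosome 8, 23020133 to 23069031) encodes DR5, a receptor for the death ligand TRAIL. It was at 3.88 or 38.8 TPM in MDA PCa 2b against 10.4 or 103.6 TPM in RC77 T/E, 2.67-fold higher in the latter. RHOBTB2 overlaps it on the opposite strand and was higher in MDA PCa 2b, at 20.7 and 11.0 TPM. AC107959.2, which also overlaps TNFRSF10B, and RF02116, which overlaps FAS, are not analysed here.
Its relatives TNFRSF10A and TNFRSF10D lie near it on chromosome 8. TNFRSF10A (23190452 to 23225102), which encodes the other signaling TRAIL receptor and is itself a p53 target, was at 7.71 or 77.1 TPM in MDA PCa 2b against 15.1 or 150.9 TPM in RC77 T/E. TNFRSF10D (23135588 to 23164027), which encodes a decoy receptor that cannot signal death, was at 0.00440 TPM in MDA PCa 2b against 13.5 TPM in RC77 T/E. The decoy thus differed far more between the lines than the signaling receptors. TNFSF10, which encodes TRAIL, was at 14.1 or 141.3 TPM in MDA PCa 2b against 8.66 or 86.6 TPM in RC77 T/E. FADD and CASP8, the adaptor and the protease below both receptors, differed little, with log2 ratios of -0.11 and -0.19.

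TP53I3, SESN1 and RRM2B act in metabolism and repair. TP53I3 (ENSG00000115129, chromosome 2, 24077433 to 24085861) encodes an oxidoreductase linked to reactive oxygen. It was at 4.40, 44.0 or 439.6 TPM in MDA PCa 2b against 2.38, 23.8 or 237.6 TPM in RC77 T/E. The gene was 1.85-fold higher in MDA PCa 2b at each of these positions. FAM228B overlaps it on the opposite strand, at 0.939 and 2.22 TPM.
SESN1 (ENSG00000080546, chromosome 6, 108984309 to 109094846) encodes a sestrin, an inhibitor of mTORC1 signaling under stress. It was at 13.5 TPM in MDA PCa 2b against 6.16 TPM in RC77 T/E, 2.19-fold higher in the former. The antisense RNA AL390208.1 and the snRNA gene RNU6-653P overlap SESN1 and are not analysed here. SESN2, a further p53 target, was at 33.5 and 14.6 TPM, in the same direction. SESN3 was at least at 1.25 TPM in MDA PCa 2b against 3.90 TPM in RC77 T/E, with a log2 ratio of -1.12, opposite to the other sestrins.
RRM2B (ENSG00000048392, chromosome 8, 102204502 to 102238961) encodes the p53-inducible small subunit of ribonucleotide reductase, which supplies nucleotides for DNA repair. It was at 20.5 or 205.1 TPM in MDA PCa 2b against 6.31 or 63.1 TPM in RC77 T/E. At 3.25-fold, this was the largest difference after GDF15 among the targets higher in MDA PCa 2b.
The subunits used in S phase went the opposite way. RRM2, the cell-cycle small subunit, was at 14.9 TPM in MDA PCa 2b against 34.4 TPM in RC77 T/E. RRM1, the large subunit, was at 19.3 and 68.2 TPM. In MDA PCa 2b, RRM2B was above RRM2 at either position of its mark, while in RC77 T/E their order depends on the open mark.

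ZMAT3 (ENSG00000172667, chromosome 3, 178960121 to 179072215) encodes a zinc finger protein that binds RNA and regulates splicing. It was at 1.06, 10.6 or 106.0 TPM in MDA PCa 2b against 3.82, 38.2 or 382.0 TPM in RC77 T/E. This 3.60-fold higher level in RC77 T/E was the largest difference in that direction among the 10 targets. Its log2 ratio was -1.23 at the lowest position and -1.84 at the highest. At the lower coordinate, the deposited interval of ZMAT3 reaches 57102 bases, and that of FAS 36769 bases, beyond the gene in GENCODE release 29. ZMAT3 is on the minus strand, so there the added stretch lies past its 3′ end. FAS is on the plus strand, so its added stretch at the lower coordinate lies before its 5′ end. The FAS interval also runs past the 3′ end, to 89029605, where the gene in that release ends at 89015785. That release places no other gene over its ZMAT3 and RRM2B genes. Overlaps were sought over the genes as placed in that release, not over the wider deposited intervals.

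**Figure D3:**
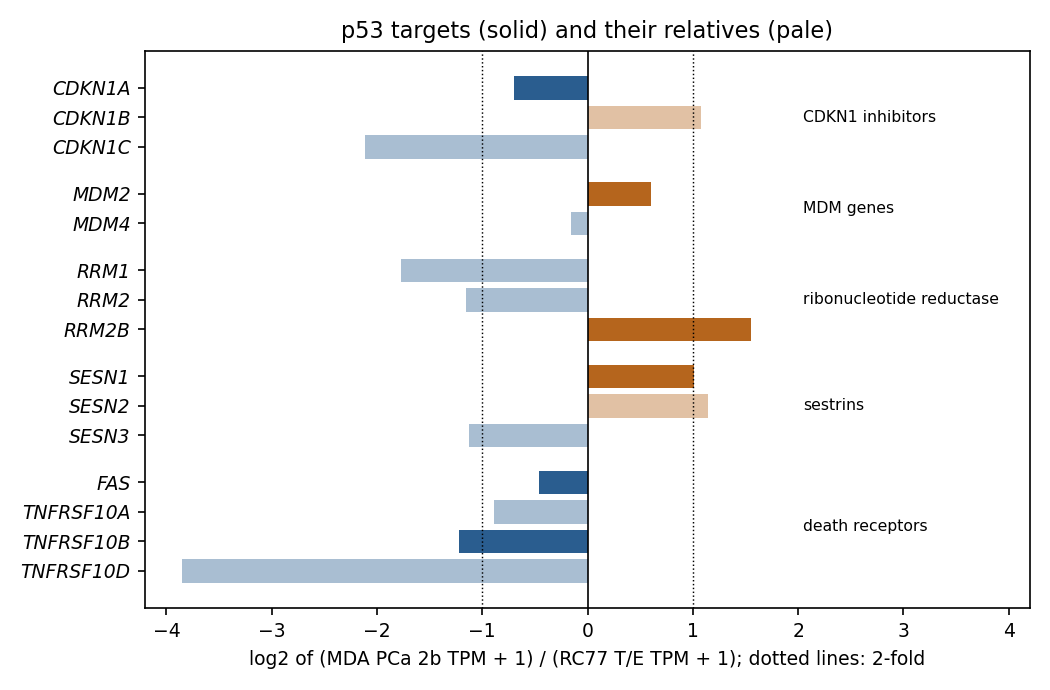
log2 ratio of MDA PCa 2b to RC77 T/E for p53 targets (solid bars) and their relatives (pale bars), grouped by family, with open decimal marks at their lowest position and 1 library per line. RRM2B points opposite to RRM1 and RRM2, SESN1 and SESN2 point opposite to SESN3, and all 4 death receptor genes shown point towards RC77 T/E.

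A longer list of 30 further p53 targets, of which 27 were matched and 26 averaged 1 TPM or more, was sorted by the same limit. Of the 26 genes, 8 passed the 2-fold limit towards MDA PCa 2b, 8 passed it towards RC77 T/E, and 10 lay within it. Over all 11624 genes, 20.1% and 19.4% passed it in these directions. The median log2 ratio of the list was -0.26, against 0.15 over all genes. Some of these genes are known to belong to epithelial lineages as well, and the basal markers given above were higher in RC77 T/E. Their part in these values was not tested.
The further targets highest towards MDA PCa 2b were RPS27L, TP53INP1, PPM1D and CCNG1. RPS27L, a ribosomal protein relative, was at 174.4 TPM in MDA PCa 2b against 22.5 TPM in RC77 T/E, a fold of 7.77 with the mark fixed. TP53INP1, which encodes a stress protein that helps to activate p53, was at 54.0 and 6.56 TPM at the lowest position, 8.23-fold higher in MDA PCa 2b. PPM1D encodes the phosphatase WIP1, which switches the p53 response off, and CCNG1 encodes cyclin G1. PPM1D was at 8.24 and 1.77 TPM at the lowest position, a fold of 4.66. CCNG1 was at 8.83 and 2.24 TPM at the lowest position, a fold of 3.95.
The further targets highest towards RC77 T/E by log2 ratio were SFN, CD82, PLK2 and CMBL, with open marks at the lowest position. At the highest position PERP (-3.25) passed CMBL (-3.07). SFN encodes 14-3-3 sigma, a cell cycle protein of stratified epithelia, and was at 67.1 or 671.1 TPM in RC77 T/E, 22.4-fold above MDA PCa 2b. CD82, a tetraspanin gene, was at 7.11 TPM in MDA PCa 2b against 127.6 TPM in RC77 T/E. PLK2, which encodes a polo-like kinase, was at 1.65 and 27.0 TPM at the lowest position. CMBL, which encodes a hydrolase, was at 0.0958 and 8.23 TPM, with CMBL under 1 TPM in MDA PCa 2b alone among the 4 genes.

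Of 18 genes of the p53 family and its regulators, 17 were matched and 16 averaged 1 TPM or more. Among these 16, 2 passed the 2-fold limit towards MDA PCa 2b, 5 passed it towards RC77 T/E, beside 20.1% and 19.4% of all genes, and the median log2 ratio was 0.018, or -0.13 after centring. HIPK2, a kinase that acts on p53, and RCHY1, a further ubiquitin ligase of p53, were the genes past the limit in MDA PCa 2b. HIPK2 was at 21.6 and 5.95 TPM and RCHY1 at 13.8 and 4.21 TPM at the lowest position, folds of 3.64 and 3.29.
CDKN2A, whose locus encodes both p16 and the MDM2 inhibitor ARF, was at 1.81 TPM in MDA PCa 2b against 286.8 TPM in RC77 T/E, a fold of 158.2. One value per locus does not tell these transcripts apart. TP63, which encodes a p53 relative of basal epithelia that binds similar sequences, is listed at 0 in MDA PCa 2b and was at 5.17 or 51.7 TPM in RC77 T/E. The damage kinases CHEK1, ATM and CHEK2 were the other genes past the limit in RC77 T/E. CHEK1 was at 4.45 and 16.2 TPM at the lowest position, 3.64-fold higher there. ATM was at 3.80 and 9.25 TPM, 2.43-fold higher, and CHEK2 was 2.29-fold higher.

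**Figure D4:**
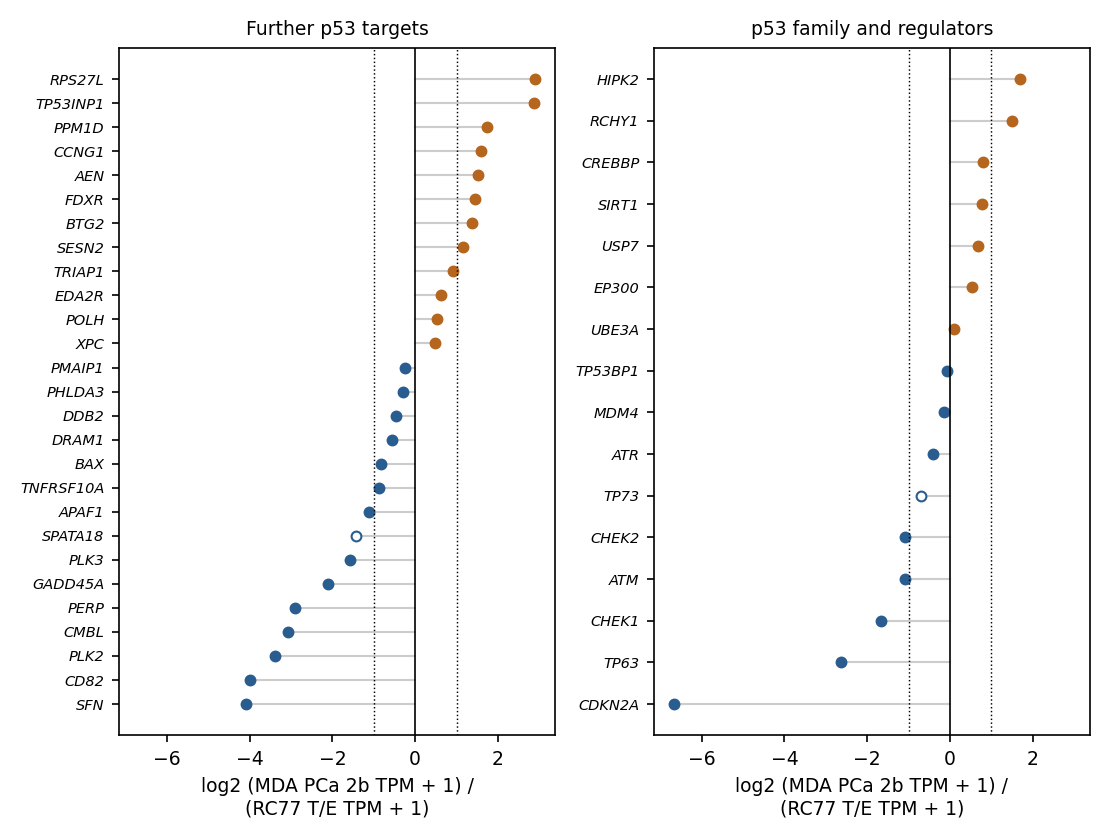
log2 ratio of MDA PCa 2b to RC77 T/E for the further p53 targets (left) and for regulators and relatives of p53 (right), 1 library per line, with open circles for the genes with a mean under 1 TPM. Open decimal marks are at their lowest position. There the further targets run from -4.09 for SFN to 2.90 for RPS27L, and CDKN2A, at -6.68, lies farthest from 0 on the right.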

How the data were processed

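RNA of untreated MDA PCa 2b cells and RC77 T/E cells was sequenced by the authors as paired-end directional libraries, 1 per cell line. The deposited table gives TPM per locus on GRCh38, with the mean and standard error of both lines, which were used only to restore the decimal mark. Per the labels, the submitters' processing notes name CASAVA, FastQC 0.11.9, Trimmomatic 0.38 and Salmon 1.2.0. The row identifiers have the Cufflinks form, and how TPM was computed is not given in the sources used here. Depth and precision are unknown.

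Values above 1 TPM that carry 3 decimals or more were deposited without their mark, which the design had not assumed. Positions with 1 to 3 digits before it were tried, and those that gave the deposited mean and standard error were kept. The mark was fixed for 16211 of 22704 loci, set for 683 by the supplementary table (position only) and open for 5810, where the lowest position was used for ratios. In the 683 loci the lowest was right in 77.2%, and whether this rate holds for the 5810 open loci was not tested. The step was tested on simulated data that lost their marks by the same rule, so that test cannot show that the rule holds for the deposited values. Of 1315 rows with 1 matching position that the supplementary table also holds, 1315 were equal to it. Loci of one symbol were summed. A gene was ranked at a mean of at least 1 TPM and called at 2-fold on the TPM + 1 scale.

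The 10 targets and all lists were chosen with earlier results of these data known. Genes named are the 10 targets, their relatives and partners, up to 4 genes per direction of each further list, the neighbours of GDF15 in the ranking, and genes that overlap a target in GENCODE release 29. Of the lists, 5 genes were not analysed here, and the values of some others are not reported here. Marker genes were named to describe the lines, CHEK2 because the count it belongs to is small, and PERP because its rank depends on the open marks. Python 3.11.15, numpy 2.4.6 and matplotlib 3.10.9 were used. Alternatives were another pseudocount, centring, upper-quartile scaling, the highest position of the mark, the largest locus, and other thresholds.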

Additional observations from a re-analysis of the deposited data

How the results depend on the processing

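No paired analysis was possible because there was 1 library per line. The count of p53 targets at least 2-fold higher in MDA PCa 2b fell to 2 from 4 when log2 ratios were centred on the median of all genes and likewise with both libraries scaled to the same upper quartile, where BBC3 and SESN1 fell short. All other counts of the 10 targets, the further targets and the regulators stayed within 1.5 times under the alternatives run, and their median log2 ratios moved by less than a 1.5-fold change. The median level of the 10 targets was 10.7 TPM in MDA PCa 2b against 6.24 TPM in RC77 T/E with open decimal marks at the lowest position, and 71.4 and 83.4 TPM at the highest, so the order of the lines in this median depends on the open marks. The ratio without a pseudocount was chosen after seeing the data. Of 60 log2 ratios of single targets under alternatives, 3 moved by more than 1.5 times on the scale of the fold, those of GDF15 (once) and ZMAT3, and 0 changed direction.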
